A study of Gallus gallus with 7 samples.

Results

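In sorted chicken vagal neural crest cells, 118 chromatin regions carried high signal for both sox10 and tfap2B while both inputs stayed low. They were taken from a deposited table of 25469 regions, of which 13888 lie on placed chromosomes. A region was included when it lay on a placed chromosome, had at least 200 scaled reads in each of the 4 pull-down libraries and at most 200 scaled reads in each of the 2 inputs. The 118 regions are 0.85% of all placed regions. They are 1.87% of the 6295 placed regions that stay at or below the input limit. The measured values therefore chose the regions, so their height over input is described here and not tested.

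Sox10 is an HMG-box transcription factor that bends DNA through the minor groove and keeps neural crest cells in a multipotent state. In the vagal crest it is known for its role in the progenitors and the glia of the enteric nervous system. Tfap2B belongs to the AP-2 family, whose members bind GC-rich sites as dimers and act early in the specification of neural crest. Both factors are known to bind enhancers far from genes as well as promoters.

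The chromatin groups were sox10 pull-down, tfap2B pull-down and input, each with 2 libraries from wild-type embryos at Hamburger and Hamilton stage 18 (HH18). In all 6, embryos had been electroporated at HH8 with the E2:citrine reporter and the citrine-positive cells sorted. The factors came from electroporated plasmids with an Avi tag, which BirA biotinylates for capture on streptavidin beads. Expression from plasmids sets the level of the tagged factors, and reads from plasmid and genome copies of a coding sequence cannot be told apart in these tables. A further RNA library came from NC2:citrine-positive cells at HH10, electroporated at HH4. A control pull-down from cells lacking a tagged factor is not among these libraries, and binding and background common to the pull-downs cannot be told apart. The labels do not say whether the 2 libraries of a group came from separate pools of embryos, and p-values then cover only the spread of these libraries, which may be technical. The gene table gives Ensembl IDs without symbols, so the sorted cells could not be checked against neural crest markers. Reads in regions ranged from 1366132 to 3498728 in the pull-downs and were 7989029 and 13921317 in the inputs. A scaled read is 1 read multiplied by a constant of its library, and the constants ranged from 0.363 to 2.34.

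The 118 regions had median values of 318 and 360.3 scaled reads with sox10 and 313 and 306 with tfap2B, against 40.6 and 49.5 in the inputs. Over all placed regions the sox10 medians were 124 and 122, the tfap2B medians 141 and 121 and the input medians 106 and 206. The limit of 200 was reached by 12.0% and 17.2% of placed regions with sox10 and by 29.5% and 14.0% with tfap2B. Over all placed regions the limit was thus reached least often in sox10 replicate 1. Among the 118 the lowest pull-down value was that of tfap2B replicate 1 in 44 regions and of replicate 2 in 34. It was that of sox10 replicate 1 in 27 and of replicate 2 in 13. Most of the 118 lay not far above the limit of 200. The lowest of the 4 pull-down values was under 300 in 86 regions, between 300 and 500 in 22, and 500 or more in 10.

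**Figure D1:**
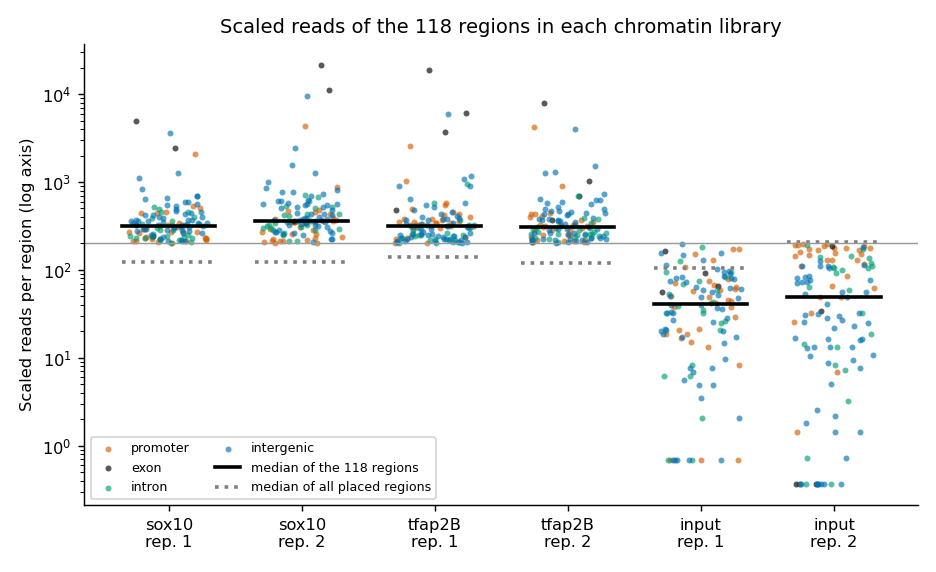
Scaled reads per region on a log axis for each of the 118 regions (points, coloured by position in the gene models) in the 6 chromatin libraries. Black bars are their medians, dotted grey bars the medians of all placed regions, and the thin line marks the limit of 200; the pull-down medians of the 118 regions lie between 306 and 360.3 and their input medians at 40.6 and 49.5.

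Regions at the edge of the limit show how little separates a region inside from one outside. Just inside was an intron of chromosome Z at 27142543 to 27143043 (galGal5), with 200.7 and 290.1 scaled reads with sox10, 243 and 254 with tfap2B, against 38.9 and 112 in input. An intron on chromosome 1 at 186768585, a promoter on chromosome 9 at 15642045 and an intergenic region on chromosome Z at 1069249 tied as the next inside, each with 202 scaled reads in tfap2B replicate 1. Just outside were a promoter on chromosome 8 at 28382942 and an intron on chromosome 1 at 57427179, both with 199.9 scaled reads in tfap2B replicate 2. A promoter on chromosome 1 at 32603901 followed with 199.6 in tfap2B replicate 1. A value just above 200 rests on 86 reads in sox10 replicate 2, and its exact 95% Poisson interval runs from 161 to 249 scaled reads. In tfap2B replicate 1 it rests on 224 reads, with an interval of 175 to 228. These intervals cover counting error only. At this depth, membership near the limit is not distinguishable from its opposite.

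Few regions reached levels far above the rest. All 4 pull-downs were at 1000 scaled reads or more in 4 of the 118 regions, and in 7 of all placed regions. The strongest by its weakest library was an intergenic region on chromosome 1 at 153949552 to 153950052, 31.5 kb downstream of the nearest transcription start site (TSS), that of ENSGALG00000016912. It had 3627 and 9605 scaled reads with sox10, 5993 and 4015 with tfap2B, against 83.4 and 0.726 in input. Even its weakest pull-down was 29.3 times the placed median of that library.

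Next came a promoter on chromosome 2 at 49766513 to 49767013, 0.155 kb from the TSS of ENSGALG00000034312. Here sox10 had 2096 and 4282 scaled reads, tfap2B 2591 and 4171, and input 173 and 32.3. All 4 pull-down libraries of this promoter lay far above both inputs. Another region with all 4 pull-downs above 1000 lay near the start of chromosome 22, at 6383 to 6883, and had 1274 and 1577 scaled reads with sox10, 1086 and 1256 with tfap2B, against 197 and 53.7 in input. The remaining one of the 4 is an exon of ENSGALG00000012290, described with that gene.

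An intergenic region on chromosome 2 at 146934137 to 146934637 was high over nearly empty inputs. It had 655 and 2424 scaled reads in sox10 and 1183 and 1512 in tfap2B, against 1 read in each input, the lowest value the table lists. An intergenic region on the same chromosome at 113398146 also had 1 read in each input, and 493 placed regions had at most 3 reads in both. The nearest TSS of the region at 146934137 is 484 kb away, the farthest of all 118. On chromosome 4 a neighbouring pair at 19356704 and 19358109, about 66 to 67 kb upstream of the TSS of ENSGALG00000009192, was high in all 4 libraries. The first of the pair had 1110.3 and 1263 scaled reads with sox10, 890.4 and 1304 with tfap2B, against 129.2 and 13.4 in input. The second had 425 and 697 with sox10, 893 and 589 with tfap2B, against 95.2 and 9.44 in input.

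A promoter on chromosome 1 at 51067475 to 51067975, 0.338 kb upstream of the TSS of ENSGALG00000038935, had 537 and 873 scaled reads with sox10, 1022 and 910.0 with tfap2B, against 29.2 and 0.363 in input. That gene had 0 counts in the HH10 RNA library. The promoter also lies within 50 kb upstream of ENSGALG00000012290, which starts at 51089596 and had 818 CPM in that library. A link of the region to either gene was not tested. Intergenic regions on chromosome 2 at 149240896 and chromosome 26 at 5311611 had like values in all 4 pull-downs. The region on chromosome 2 had 596 and 611 scaled reads with sox10, 550.4 and 494 with tfap2B, against 58.4 and 30.8 in input. At chromosome 26 the values were 696 and 557 with sox10, 644 and 571 with tfap2B, against 32.7 and 56.2 in input.

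In the fit over all regions, 94 of the 118 were called higher in sox10 than in input and 87 higher in tfap2B than in input, against 18.4% and 10.8% of all regions tested (limma adjusted p under 0.05). Of the 13885 placed regions tested, 1973 and 1418 were called higher. Both comparisons use the same inputs and the columns that chose the regions, so nothing is read from these counts. The calls depended on single libraries: none of the 118 was called for sox10 without sox10 replicate 2 and 36 without replicate 1, and none for tfap2B without either tfap2B library. The median difference was 3.43 without sox10 replicate 2 against 3.34 with all libraries, and 3.18 and 3.31 without a tfap2B library against 3.26. Each library had to meet its limit on its own, so the size of these differences is not independent of the selection. In those fits the lone library is assumed to vary like the other groups, and no region of the whole table passed when sox10 replicate 2 or either tfap2B library was left out (smallest limma adjusted p 0.0502 to 0.0681). Height over input varied widely. The lowest pull-down value was under 2 times the highest input in 37 regions and over 5 times in another 37. Among promoters 21 of 32 were under 2 times, and among the other regions 16 of 86.

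By position, 58 of the 118 regions were intergenic, 32 were promoters (centre within 1 kb of a TSS), 24 intronic and 4 exonic outside promoters. Promoters made up 27.1% (95% Wilson interval 19.9 to 35.8%), against 48.9% of all placed regions and 32.6% of placed regions at or below the input limit. Intergenic regions made up 49.2% (40.3 to 58.1%), against 31.1% and 42.4%. These intervals treat the regions as independent and may be too narrow, since 36 of the 118 lie in runs with at most 10 kb between starts. The median distance to a TSS was 5.19 kb, against 1.13 kb for all placed regions and 6.51 kb for those at or below the input limit. Much of the distance between the 118 and all placed regions is thus also seen in regions chosen by low input alone. When input replicate 2 was left out of the rule, 214 regions met it and 43.0% of them were promoters. The regions that met the 4 pull-down limits but exceeded the input limit numbered 220, and 47.3% of these were promoters.

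**Figure D2:**
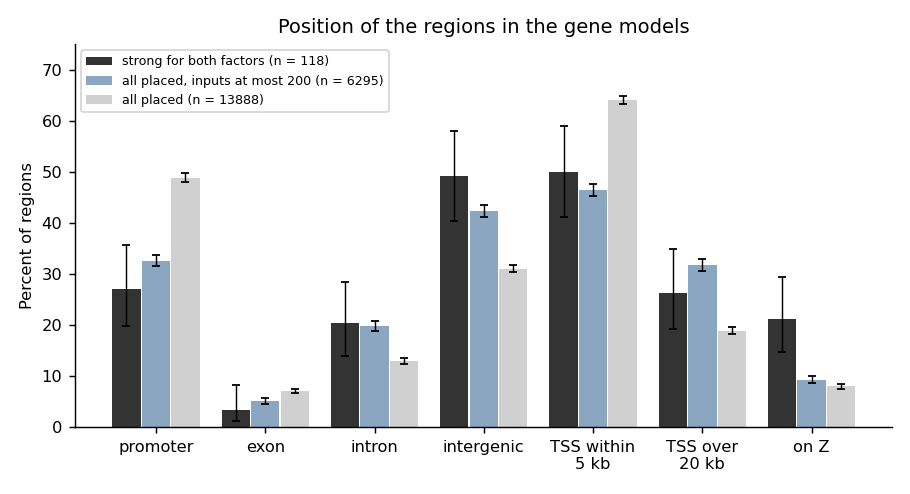
Percent of regions in each position class, near or far from a transcription start site (TSS), and on chromosome Z, for the 118 regions (black), all placed regions with at most 200 scaled reads in both inputs (blue) and all placed regions (grey), with 95% Wilson intervals as error bars. The intervals treat regions as independent and may be too narrow where regions neighbour each other, as on chromosome Z. The black bars lie close to the blue ones in most classes, and on chromosome Z they reach 21.2% against 9.32% and 8.02%. On Z, 16 of the 25 regions lie in 1 stretch of 172 kb.

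The inputs differed between the position classes. In the 32 promoters the median was 45.2 scaled reads in input replicate 1 and 145 in input replicate 2, and in the 86 other regions it was 39.3 and 26.5. Input 2 was the higher of the inputs in 24 of 32 promoters, 16 of 24 introns and 22 of 58 intergenic regions. Over all placed regions it was higher in 79.4% of promoters, 41.8% of introns and 51.8% of intergenic regions. The part of the input in the low promoter share was not tested.

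Sox10 and tfap2B were close to each other in most of these regions. The log2 difference, sox10 minus tfap2B on log2(scaled reads + 1), was within 1 of 0 in 113 of 118 regions, with a median of 0.20 and quartiles of -0.13 and 0.41. The same range held 81.2% of all placed regions and 69.5% of those at or below the input limit. Since each region had to reach 200 in all 4 libraries, this closeness is not independent of the selection. In the fit on the 4 pull-down libraries, none of the 118 was called higher in sox10, against 2.42% of all regions tested, and 1 was called lower, against 0.0914% (limma adjusted p under 0.05). Of the 13862 placed regions tested, 579 were called higher and 10 lower, so nearly all higher calls lay on placed chromosomes. An unadjusted limma p under 0.05 was reached by 10 of the 118, against 3415 of all 24067 regions tested, which is a larger share. The edgeR alternative also called 0 of the 118 higher and 1 lower, against 519 and 14 of the 24067. The median standard error of the difference was 0.33, and with 2 libraries a group single differences of -1.23 and 2.04 did not pass the test, so a missing call does not show that the factors were equal. Leaving out 1 library leaves a single library of that factor, so only the difference is given here. The median log2 difference of the 118 was 0.12 without tfap2B replicate 1 and 0.21 without tfap2B replicate 2. It was 0.27 without sox10 replicate 1 and 0.07 without sox10 replicate 2.

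The balance of the factors varied with position, a description that was not tested. Of the 118 regions 80 had the higher mean log2 value in sox10, against 40.3% of all placed regions and 55.8% of those at or below the input limit. Other scalings of the libraries left 76 to 80. Without sox10 replicate 2 there were 67, with a median log2 difference of 0.07, and without sox10 replicate 1 there were 88, with a median of 0.27. Among the 58 intergenic regions 49 were higher in sox10 (median log2 difference 0.27), and among the 24 introns 16 were (0.22). Among the 32 promoters only 13 were higher in sox10, with a median log2 difference of -0.14. Over all placed regions 22.8% of promoters, 53.8% of intergenic regions and 67.9% of introns were higher in sox10. Promoters were thus lowest in both sets, but among the 118 the intergenic share lay above the intron share and over all placed regions below it. At or below the input limit these shares were 28.0%, 66.8% and 76.2%. Of the 24 introns, 3 and 4 lay in runs of neighbouring regions in 1 stretch of chromosome Z, so the intron share leans on neighbours. Outside promoters 67 of the 86 regions were higher in sox10, against 57.0% of all placed regions and 69.3% of those at or below the input limit. Both sox10 libraries lay above both tfap2B libraries in 44 regions (37.3%), against 20.9% of all placed regions and 35.4% of those at or below the input limit. Both tfap2B libraries lay above both sox10 libraries in 19 regions (16.1%), against 29.7% and 20.0%. Of these 19, 12 were promoters. They are 37.5% of the 32 promoters, against 39.7% of all placed promoters and 34.2% of those at or below the input limit.

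**Figure D3:**
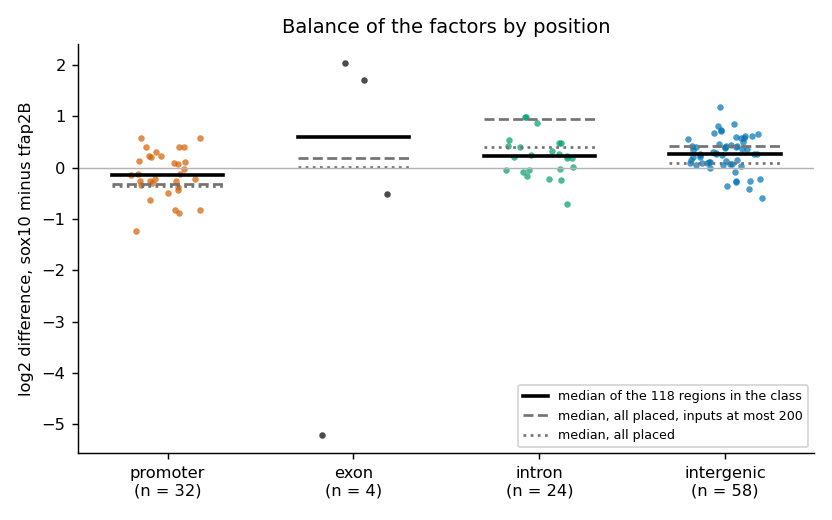
Log2 difference of each of the 118 regions, sox10 minus tfap2B, by position in the gene models, with the median of the 118 regions (black bar) and the medians of all placed regions at or below the input limit (dashed) and of all placed regions (dotted). Promoters centre at -0.14 and intergenic regions at 0.27, and 1 exon lies at -5.21.

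Apart from 2 exons of ENSGALG00000012290, the regions leaning most to sox10 were an intergenic region of linkage group LGE64 and introns on chromosomes 19 and 21. The LGE64 region at 867803 to 868303 had 531 and 994 scaled reads with sox10, 210.3 and 494 with tfap2B, against 64.6 and 7.62 in input. Its tfap2B replicate 2 lay close to its sox10 replicate 1, and the log2 difference of 1.17 ± 0.48 (SE) did not pass the test (limma adjusted p = 0.314). In the intron at 6919379 to 6919879 of chromosome 19, inside ENSGALG00000004793, sox10 had 453 and 515, tfap2B 222 and 264, and input 126 and 143 scaled reads. The intron at 2682357 to 2682857 of chromosome 21 had 455 and 538 with sox10, 255 and 244 with tfap2B, against 42.4 and 8.35 in input. In both introns the sox10 libraries lay above the tfap2B libraries without overlap, yet differences of 0.99 ± 0.32 and 0.99 ± 0.31 (SE) had limma adjusted p of 0.187 and 0.183.

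Towards tfap2B the leaders, apart from an exon of ENSGALG00000016680, were all promoters. On chromosome 1 the promoter of ENSGALG00000016865 at 142895124 to 142895624 had 224 and 211 scaled reads with sox10, 584 and 446 with tfap2B, against 0.695 and 131 in input. The log2 difference was -1.23 ± 0.32 (SE), with a limma adjusted p of 0.0996. Promoters on chromosome 14 at 6454831 (-0.89), chromosome 17 at 5941460 (-0.83) and chromosome 8 at 4529951 (-0.82) followed. In all 4 promoters both tfap2B libraries exceeded both sox10 libraries, and input replicate 2 lay between 131 and 198 scaled reads. None of the 4 passed the test.

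Of the 4 exonic regions, 3 had very uneven values. The other, on chromosome 11 at 3975727 in ENSGALG00000023738, had 243 and 358 scaled reads with sox10, 481 and 373 with tfap2B, against 66.003 and 186 in input, with a log2 difference of -0.52. ENSGALG00000012290 lies on the plus strand of chromosome 1, from 51089596 to 51098755, and both listed regions inside it belong to the 118. Its exonic region at 51096274 to 51096774 had 4911 and 21446 scaled reads with sox10, 6041 and 1025 with tfap2B, against 91.7 and 33.7 in input. The other, at 51090792 to 51091292, had 2413 and 11126 with sox10, 3666 and 691 with tfap2B, against 163 and 0.363 in input. Sox10 replicate 2 was 4.37 and 4.61 times replicate 1 in these regions, while tfap2B ran the other way, with replicate 1 well above replicate 2. The log2 differences of 2.04 ± 0.92 and 1.70 ± 0.87 (SE) between the factors did not pass the test (limma adjusted p = 0.36 and 0.407). If a plasmid carried coding sequence of this gene, plasmid reads in these exons could not be told apart from genome reads. Their part in these values was not tested. This gene also had the highest HH10 level of all genes nearest to the 118 regions, 818 CPM.

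The exonic region at 108710618 to 108711118 of chromosome 3 lies inside ENSGALG00000016680, a gene on the minus strand from 108690400 to 108715816. It had 323 and 339 scaled reads with sox10, 18945 and 7940.5 with tfap2B, against 56.3 and 0.363 in input. Both tfap2B libraries lay far above both sox10 libraries, and the log2 difference was -5.21 ± 0.47 (SE, limma adjusted p = 0.0232). The call was lost in the fit with all 6 chromatin libraries and without either sox10 library, with differences of -5.24 to -5.17. It was the only 1 of 5 listed regions inside this gene that reached 200 in both sox10 libraries, the other 4 having 98.3 to 192 scaled reads with sox10. As with the exons of ENSGALG00000012290, reads of plasmid copies could not be told apart here, and their part was not tested.

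Chromosome Z held 25 of the 118 regions (21.2%), against 8.02% of all placed regions and 9.32% of those at or below the input limit. Of the 25, 16 lay in 1 stretch of 172 kb, from 27142543 to 27314276, in which the table lists 18 regions. Only 9 lay outside it, so the share on chromosome Z leans on this 1 stretch. The stretch has 3 blocks. The middle block, from 27238085 to 27266466, held 10 consecutive listed regions, all among the 118. Neighbouring starts in this block were 2.60 to 5.75 kb apart with a median of 2.80 kb, and 8 of 9 spacings lay between 2.5 and 3.1 kb. In the outer blocks the spacings were 0.828 and 2.05 kb on the one side and 3.41 and 3.095 kb between the regions among the 118 on the other.

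Values across this stretch were alike. Sox10 replicate 1 ranged from 200.7 to 452 scaled reads and replicate 2 from 253 to 524. Tfap2B replicate 1 ranged from 213 to 382 and replicate 2 from 208 to 431. Input replicate 1 had 25.01 to 74.3 and input replicate 2 18.5 to 198. The log2 difference between the factors stayed between -0.23 and 0.42. The 2 listed regions of the stretch outside the 118 were also high in both sox10 libraries. That at 27312841 had 300 and 299 scaled reads with sox10, 143 and 244 with tfap2B, against 86.2 and 263 in input. It thus missed the limits in tfap2B replicate 1 and in input replicate 2. That at 27268691 had 768 and 580.3 scaled reads with sox10, 496 and 604 with tfap2B, against 250.1 and 495 in input. It is 2.73 kb from its neighbour, so it continues the spacing of the middle block.

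The gene models put 18 genes in the stretch, and 17 of them had 0 counts in the HH10 RNA library and the other had 1 count. Many overlap each other, so 1 region can lie in up to 4 gene models. ENSGALG00000046254 (27229254 to 27303327, minus strand) holds 11 of the 118 regions in its body or the 5 kb before it, more than any other gene. ENSGALG00000046670 followed with 8. No genome sequence of the build was used here, so copies of 1 repeated sequence in the stretch were not tested for, and reads of such copies could not be told apart.

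**Figure D4:**
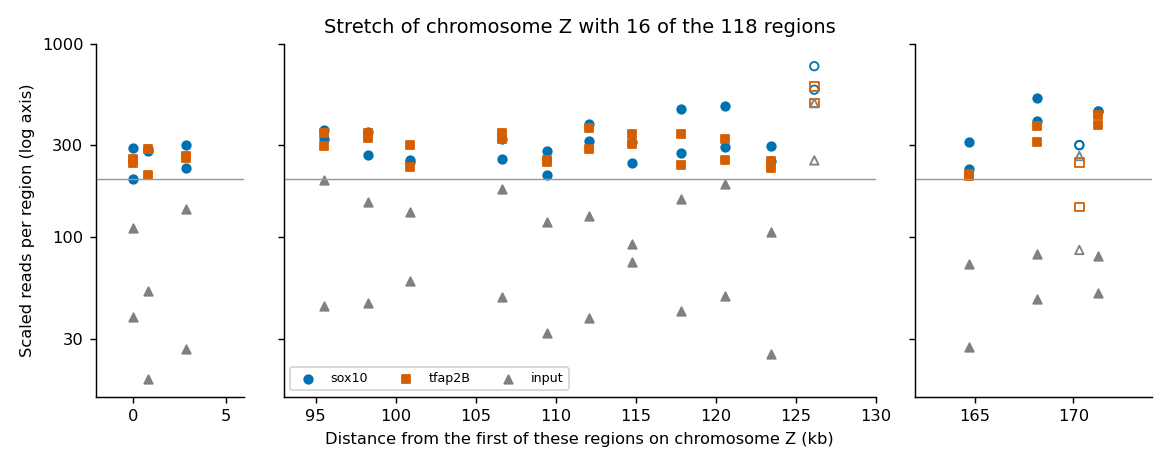
Scaled reads on a log axis of the listed regions in the stretch of chromosome Z, by distance in kb from its first region, with sox10 as circles, tfap2B as squares and input as triangles (2 libraries each); filled symbols belong to the 118 regions and open symbols do not, and empty parts of the stretch are left out. The middle block lies above the limit of 200 in all pull-downs and below it in both inputs, except for its last, open region.

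Outside this stretch, runs of neighbouring regions were short. With at most 10 kb between starts, the 118 regions formed 12 runs that held 36 regions, and 3 of those runs with 16 regions are the blocks on Z. A further run of 3 on Z lay at 34400830 to 34416285. On chromosome 1, 3 intergenic regions at 75141677, 75143551 and 75144732 lay 23.8 to 26.9 kb upstream of the TSS of ENSGALG00000013272. In that run the last had 842 and 779 scaled reads with sox10, 453 and 723 with tfap2B, against 149 and 16.3 in input. The remaining 7 runs were pairs.

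Libraries of 1 factor were close in most of the 118 regions. The sox10 values were within 1.5 times of each other in 97 regions, and those of the tfap2B libraries in 96. The inputs differed more. Input replicate 2 was over 2 times input replicate 1 in 48 of the 118 regions, against 35.5% of all placed regions. Input replicate 1 was over 2 times input replicate 2 in another 45. Across the 118 regions, which share libraries and are not replicates, the log2 values had a Pearson correlation of 0.89 within sox10 and 0.85 within tfap2B. It was 0.65 to 0.68 between libraries of different factors, and 0.11 between the inputs. Over all placed regions it was 0.81 within sox10, 0.69 within tfap2B, 0.27 to 0.58 between the factors and 0.70 between the inputs. The limits used the values of all 6 libraries. The agreement and the correlations within the 118 are therefore not independent of the selection, and nothing is read from their distance to all placed regions. In 10 regions sox10 replicate 2 was over 2 times replicate 1 (2.04 to 4.61 times), and in no region was the reverse seen. Of all placed regions 2.51% had replicate 2 over 2 times replicate 1.

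Most of these 10 regions were low in input replicate 2. Input replicate 2 had 10 reads or fewer in 8 of the 10, and in 14 of the other 108. Besides the exons of ENSGALG00000012290 and 3 regions already described, they were on chromosome 1 at 195422235 and 195503485, chromosome 2 at 79844889 and 113476277, and chromosome Z at 40309400. The region at 195422235 had 217 and 765 scaled reads with sox10, 400.0 and 373 with tfap2B, against 2.08 and 0.363 in input. At 40309400 of chromosome Z the values were 228 and 714 with sox10, 307 and 385 with tfap2B, against 0.695 and 3.27 in input. In both the tfap2B libraries lay between the sox10 libraries. Depth differed too, since 1 read is worth 2.34 scaled reads in sox10 replicate 2 and 1.20 in replicate 1, and the part of depth or input in the pattern was not tested.

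**Figure D5:**
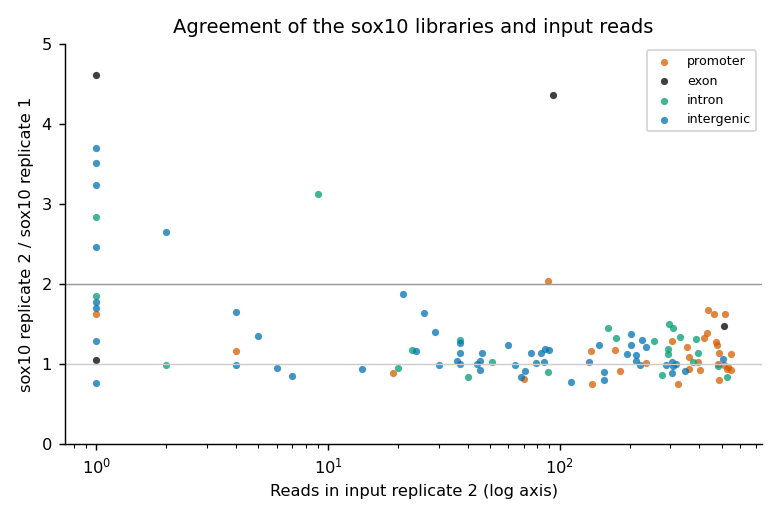
Ratio of sox10 replicate 2 to sox10 replicate 1 in each of the 118 regions against the reads in input replicate 2 (log axis), coloured by position in the gene models. Of the 10 regions above a ratio of 2, 8 have 10 or fewer reads in input replicate 2.

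Genes near the 118 regions covered a wide range of expression at HH10, an earlier stage than the chromatin. Within 100 kb of a TSS, 110 of the regions had 94 different nearest genes, with a median of 7.66 CPM. The median was 19.4 CPM for genes nearest to any placed region and 10.0 CPM for those nearest to placed regions at or below the input limit. Of the 94 genes 30 had 0 counts (31.9%), against 18.4% and 25.3%. With the limit for a count of 0 set at 3 counts, such a gene can have up to 0.104 CPM. Without the stretch on Z the median was 11.9 CPM (interval 3.44 to 25.6), and 22 of 85 genes had 0 counts (25.9%). Without the stretch the share at 0 was 25.2% for placed regions at or below the input limit and 18.3% for all placed regions. The higher share against the former thus rests on that stretch, while the share stayed above that of all placed regions. At promoters the median was 13.4 CPM for 32 genes (interval 0.0695 to 33.6). It was 36.1 CPM for all placed promoters and 24.5 CPM for those at or below the input limit, and only the latter lies inside the interval. Of the 32 promoters 6 lay in the stretch on Z, and their 6 nearest genes had 0 counts. Outside promoters the median was 3.37 CPM (interval 0.104 to 14.4), against 5.18 and 4.07 CPM, both inside the interval. With 1 RNA library these levels have no replicate check.

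Among the 94 genes 16 had 100 CPM or more (17.0%), against 21.6% for all placed regions and 16.1% for those at or below the input limit, so abundant genes were no more frequent near the 118 regions than the background gives. After ENSGALG00000012290 came ENSGALG00000040651 with 642 CPM (exact 95% Poisson interval 633 to 651), a gene of chromosome 10. The region in its intron, at 16770900 to 16771400, had 385 and 321 scaled reads with sox10, 327 and 271 with tfap2B, against 35.4 and 191 in input. ENSGALG00000021128 of chromosome 14 had 513 CPM (505 to 522). The region in its intron at 4209488 to 4209988, 3.02 kb from its TSS, had 488 and 409 scaled reads with sox10, 372 and 254 with tfap2B, against 8.34 and 14.5 in input. The input was low in both libraries at this intron, in contrast to the intron on chromosome 10.

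ENSGALG00000010341 on chromosome 3 had 354 CPM and a region at its promoter, 30965390 to 30965890. There sox10 had 309 and 360.3 scaled reads, tfap2B 239 and 210.3, and input 61.1 and 49.4. ENSGALG00000006947 on chromosome 9 had 318 CPM, and its intergenic region at 12660011 had 214 and 208 scaled reads with sox10, 386 and 262 with tfap2B, against 39.6 and 111 in input. The promoter leaned to sox10 and the intergenic region to tfap2B, the opposite of the medians of their classes, and neither difference passed the test (limma adjusted p = 0.441 and 0.451). ENSGALG00000016680, which holds the exonic region of chromosome 3, had 253 CPM (247 to 259) but is not the gene with the nearest TSS to it.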

How the data were processed

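Chromatin values are a signal that the authors deposited under the name of raw counts. They are whole reads times 1 constant per library: 100% of values lay within 0.01 read of a whole number. The submitters' processing notes name the build galGal5 and, without roles, Bowtie, DiffBind, DESeq2, featureCounts, Subread 1.4.5 and STAR 2.4.2a. Region calling, the scaling and whether starts count from 0 or 1 are not stated there. Gene values are deposited counts of Ensembl genes, per the file headers. The HH10 column appears 2 times with identical values and was used once, and another 21 sample columns stayed out. No source states whether counting used strand. None of the 24881 gene IDs matched the RefSeq table (0 matches).

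The TSS is the outermost exon start of a gene. Fits used limma 3.58.1 (trend on mean level) of log2(scaled reads + 1), with Benjamini-Hochberg adjustment over all regions left by filterByExpr of edgeR 4.0.16 (25281 with 6 libraries, 24067 with the 4 pull-downs). Reads recovered from the deposited signal entered the edgeR alternative and the DESeq2 1.42.0 factors. The main limma fits of sox10 against tfap2B and of sox10 against input were tested on simulated data. The other fits were not. Only a region with an adjusted p under 0.05 is called. The regions and named genes were chosen with earlier results of these data known. Named regions were the 12 with the largest lowest pull-down value relative to its library's placed median, the 5 at each end of the difference between factors and 3 on each side of the limit. Also named were those of up to 5 genes with 3 or more regions and those of the 5 nearest genes with the highest HH10 CPM. Those within 50 kb of ENSGALG00000012290 and ENSGALG00000016680 completed the list. A region for the lowest HH10 CPM was planned but not picked. Others named were chosen after their values were seen. CPM divides by the 28777461 deposited gene counts.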

Additional observations from a re-analysis of the deposited data

Results flagged for a closer look

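Unplaced sequences, which the selection leaves out, held 175 regions that met the same limits, 1.51% of the 11581 unplaced regions, against 0.85% of placed regions. These 175 regions were part of the fits over all regions but not of the 118. The same limits chose them, so their height over input is described and not tested. They lay on 155 sequences, with medians of 376 and 407 scaled reads with sox10, 261 and 350 with tfap2B, against 69.5 and 20.7 in input.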

How the results depend on the processing

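The number of regions moved with the limits and the scaling. It was 383 with a pull-down limit of 150, 32 with 300, 66 with an input limit of 100, 338 with none and 293 with unplaced regions. It was 228 with TMM factors, 117 of them among the 118, and 324 with total reads. Leaving out 1 library gave 132 to 214. The promoter share was 22.3 to 43.0% without 1 library, and 50% of regions lay within 5 kb of a TSS. The HH10 median was 2.21 CPM with a pull-down limit of 300.

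Over all regions, those higher than input numbered 4660 for sox10 (2548 with edgeR) and 2721 for tfap2B (4688 with total reads). Without 1 library they ranged from 0 (without sox10 replicate 2) to 7103 (without input replicate 2), and from 0 (without either tfap2B library) to 6163 (without input replicate 1). The split varied with the scaling: 4660 higher and 5632 lower for sox10 as deposited, 4773 and 2965 with TMM, 5012 and 2755 with DESeq2 size factors, 6167 and 2449 with total reads, and for tfap2B 2721 and 4401, 3132 and 2316, 2975 and 2608, and 4688 and 2157. Without 1 library the number of the 118 regions called ranged from 0 to 115 for sox10 and from 0 to 111 for tfap2B. Between the factors, 582 were higher and 22 lower in sox10. A replicate block, with the replicate number as a term, gave 1198 and 215, and the fit with all 6 chromatin libraries 0 and 0, with 0 of the 118 lower. Lower regions numbered 47 with a pseudocount of 10 and 14 with edgeR. Without 1 library the counts were 0 to 4190 higher and 0 to 3283 lower, and for the 118 regions 0 to 10 and 0 to 9. Deviations of same-numbered libraries correlated at 0.05 between sox10 and tfap2B, -0.03 between sox10 and input and -0.27 between tfap2B and input, so the numbers do not show pairing. The block changed no call among the 118 between the factors. Against input it left 89 for sox10 and 73 for tfap2B, and with the input numbers crossed 99 for tfap2B, an alternative chosen after the data were seen, as was leaving out the stretch on Z. The cause was not tested for any of these. A planned comparison of all TSSs with the outermost start was not run, because the gene table does not group exons by transcript. With 2 libraries a group and 86 to 224 reads behind a value at the limit, membership near it is limited by depth.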

Other observations

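Of the 7 placed regions with all 4 pull-downs at 1000 scaled reads or more, 3 exceeded the input limit and are not among the 118. A promoter on chromosome 14 at 4195087 to 4195587 had 2132 and 10549.9 scaled reads with sox10, 10175 and 4894 with tfap2B, against 1740.4 and 615 in input. An intergenic region on chromosome 1 at 188381838 had 1565 and 1582 with sox10, 1485 and 1341 with tfap2B, against 8579 and 3843 in input. Another on chromosome 2 at 143766794 had 1411 and 1448 with sox10, 1123 and 1002 with tfap2B, against 7426 and 2921 in input. In the promoter all 4 pull-downs lay above both inputs, and in the intergenic regions both inputs lay above all 4 pull-downs.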
